A study of Mus musculus with 9 samples.

Results

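The 9 genes described here encode enzymes of sphingolipid metabolism: the subunits *Sptlc1* and *Sptlc2* of serine palmitoyltransferase, the ceramide synthases *Cers2*, *Cers4*, *Cers5* and *Cers6*, the sphingomyelin synthase *Sgms1*, the glucosylceramide synthase *Ugcg* and the sphingosine kinase *Sphk1*. They were picked by name, with results of these libraries already known, out of 55401 genes in the deposited tables. The values that were known beforehand include the levels in all 9 libraries and the differences between the groups, so the levels and differences of the 9 genes are given as a description, without p-values. A further 74 genes of the same pathways were listed by function, also with results of these libraries known. Those were read from the test over all genes.

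All libraries are RNA-Seq of mouse leukemia cells that carry *Hoxa9* and *Meis1* (H9M). The cells descend from lineage-negative bone marrow of C57BL/6-Ly5.1 mice, and a lentiviral vector gives each clone its color code. A mix of color-coded clones was injected into lethally irradiated C57Bl6/J recipients together with helper bone marrow, and clones were sorted from spleen as CD45.1+, EGFRt bright, cKit+ and CD11b dim or negative cells. The pre-malignant group was sorted from mouse #15 and contains 43BC-D as well as 33BC-D and 38BC-D. This mouse was killed a few weeks after transplantation and before leukemia. The de novo expanded group holds the same 3 clones after they had grown out by the leukemic endpoint, 33BC-D in mouse #17, 38BC-D in #13 and 43BC-D in #14, and the stably expanded group holds clone 34BC-D from those same 3 mice. The pre-malignant group thus comes from 1 mouse, so that mouse and disease stage cannot be told apart, and the stably expanded group is 1 clone, so that its replicates are mice and not clones. Stably expanded over pre-malignant also sets 1 clone against 3 other clones, so that clone, mouse and stage cannot be told apart there. Libraries are numbered 1 to 3 within a group, and a number names neither a clone nor a mouse.

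Sphingolipids are built on a long-chain base that serine palmitoyltransferase makes from serine and palmitoyl-CoA. Ceramide synthases attach a fatty acid to that base, and each isoform prefers acyl chains of its own length. Ceramide is the branch point: sphingomyelin synthases turn it into sphingomyelin, glucosylceramide synthase opens the route to glycosphingolipids, and ceramidases release sphingosine, which sphingosine kinases phosphorylate to sphingosine 1-phosphate. In blood-forming cells ceramide is known as a lipid linked to growth arrest and cell death, and sphingosine 1-phosphate as a signal for survival and for leaving the tissue.

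*Cers4* and *Sgms1* were the only genes of the 9 that were called in any comparison of all 6 libraries, and both were lower in the stably expanded clone. Their promoter windows from RefSeq are shown for that reason, from 250 bases before to 50 bases after an annotated start, on GRCm38.p6 and read 5′ to 3′ on the strand of the gene. Capitals mark the GC box, the letters GGGCGG on either strand. The *Cers4* window is chr8:4493155-4493454 on the plus strand, and the *Sgms1* window, the outermost of 4 windows listed for that gene, is chr19:32388463-32388762 on the minus strand.
Cers4: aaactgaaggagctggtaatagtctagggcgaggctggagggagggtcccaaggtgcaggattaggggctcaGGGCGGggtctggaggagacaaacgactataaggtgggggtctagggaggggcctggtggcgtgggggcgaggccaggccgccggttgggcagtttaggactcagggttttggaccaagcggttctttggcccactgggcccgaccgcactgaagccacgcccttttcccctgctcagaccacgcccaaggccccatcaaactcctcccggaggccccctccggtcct
Sgms1: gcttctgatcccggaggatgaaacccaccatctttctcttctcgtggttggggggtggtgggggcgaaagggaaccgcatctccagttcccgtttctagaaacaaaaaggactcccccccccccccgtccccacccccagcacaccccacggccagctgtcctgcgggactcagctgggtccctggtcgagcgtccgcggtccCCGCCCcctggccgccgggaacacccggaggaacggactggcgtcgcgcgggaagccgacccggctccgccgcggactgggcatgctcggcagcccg
Each window holds 1 GC box, which begins at -178 from the start in *Cers4* and at -47 in *Sgms1*. A GC box was found in 35.66% of all 32851 mouse windows of this length. The other motifs searched on both strands were the CCAAT box (CCAAT, 37.41% of windows), the AP-1 site (TGANTCA, 7.808%), the C/EBP site (TTGCNNAA, 10.8%), the E-box (CACGTG, 7.15%), the ETS site (GGAAGT, 23.77%) and the RUNX site (TGTGGT, 16.76%), and none of these strings was in the 2 windows printed. All 9 genes had a window. The window at the outermost start held a GC box in 7 of the 9 genes, a CCAAT box in 4, an E-box in 2, an ETS site in 1, and an AP-1, C/EBP or RUNX site in 0. Windows at other starts held AP-1 sites and CCAAT boxes in *Sgms1* and *Sphk1*, GC boxes in *Sgms1*, E-boxes in *Sphk1* and C/EBP sites in *Cers2*. Which start these cells use was not tested. GC content was 64.33% in the *Cers4* window and 69.33% in the *Sgms1* window, where the median of all windows was 52.67%.

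Between 10379739 and 15551196 reads fell on genes in each library. Levels are given as normalized counts, that is, reads divided by the DESeq2 size factors of all 9 libraries, with mean ± SD over n = 3. Differences are log2 fold changes of the normalized count plus 1 with their standard error (SE) from limma, run on the 6 libraries of each pair of groups. A gene passed where its p-value, adjusted over all genes tested by Benjamini-Hochberg, was under 0.05, and it was called where it also changed at least 2-fold. For the 9 enzymes a pass or a call is a description and no support, since they were picked with these differences known. De novo expanded library 3 stood apart from the rest of its group. Its log2 levels correlated with a mean r of 0.924 with the other de novo expanded libraries and of 0.959 with the stably expanded ones, across genes, which are not independent replicates. Results that rest on it are therefore also given without it. It was set apart by these same values, so differences, calls and p-values without it are a description and no support. The tissue is bulk sorted cells, in which fewer cells of a type and less RNA per cell cannot be told apart.

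Of the 9 enzymes, 8 passed the filter of a mean normalized count of at least 10, and *Sphk1* did not. Which 8 these are is a matter of level alone and supports nothing about the groups. Per kilobase of gene model, which allows levels of different genes to be compared, *Cers2* was the most abundant at a mean of 340 normalized counts per kb over the 9 libraries. *Cers6* followed with 203, *Sptlc2* with 153, *Sptlc1* with 124, *Cers5* with 116 and *Ugcg* with 97.3. *Sgms1* (15.1) and *Cers4* (12.6) were lower, and *Sphk1* had 0.584. Neighbors in this order did not always differ beyond their spread. In the pre-malignant group, *Sptlc1* had 121 ± 26.6 and *Cers5* 115 ± 22.7 normalized counts per kb, and in the de novo expanded group *Cers4* had 19.4 ± 11.0 and *Sgms1* 14.9 ± 5.47.

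**Figure D1:**
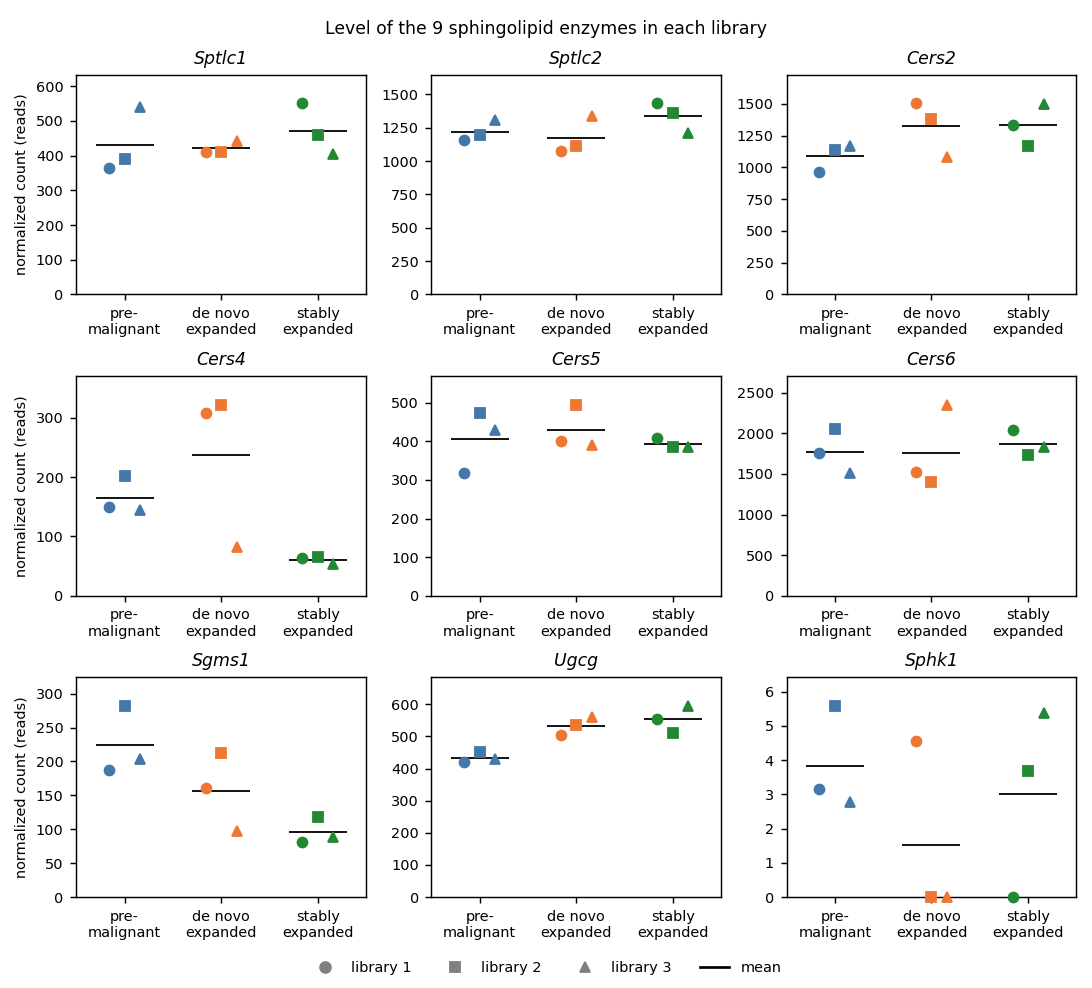
Normalized counts of the 9 enzymes, 1 panel per gene with a linear axis from 0, in the pre-malignant, de novo expanded and stably expanded groups; each symbol is 1 library (its shape gives library 1, 2 or 3 of the group) and the bar is the mean of 3. *Cers4* is lowest in the stably expanded libraries, *Sgms1* is lower in them than in the pre-malignant ones, de novo expanded library 3 lies below its group in both, and the serine palmitoyltransferase subunits, *Cers5* and *Cers6* overlap between the groups.

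Serine palmitoyltransferase, which commits serine to sphingolipids, had overlapping levels in all groups when all libraries were kept. *Sptlc1* (chromosome 13, 53332748 to 53377397, minus strand) encodes the subunit common to all forms of the enzyme. Its normalized counts were 366, 390 and 540 in the pre-malignant group, 410, 411 and 441 in the de novo expanded group and 551, 459 and 406 in the stably expanded group. All 3 groups overlapped, and the log2 fold changes were 0.0022 (SE 0.17) for de novo expanded over pre-malignant, 0.14 (SE 0.18) for stably expanded over pre-malignant and 0.16 (SE 0.15) for stably over de novo expanded. *Sptlc2* (chromosome 12, 87305058 to 87388355, minus strand) encodes a catalytic subunit. It had 1158, 1198 and 1308 normalized counts in the pre-malignant, 1074, 1111 and 1338 in the de novo expanded and 1434, 1359 and 1211 in the stably expanded group. The groups again overlapped, with log2 fold changes of -0.042 (SE 0.12), 0.13 (SE 0.10) and 0.19 (SE 0.13) in the same order. Without de novo expanded library 3, *Sptlc2* was -0.14 (SE 0.11) de novo expanded over pre-malignant and 0.29 (SE 0.12) between the leukemic groups. Neither was called, but the groups no longer overlapped in either, while those of *Sptlc1* still did. Without library 3, 2778 of 14224 genes lay lower without overlap in the first comparison, and 2731 of 13756 higher in the second.

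Of the ceramide synthases, *Cers4* differed most between the groups. *Cers4* (chromosome 8, 4493026 to 4531680, plus strand) makes ceramides with long acyl chains. It had 150, 202 and 145 normalized counts in the pre-malignant group, 309, 323 and 82.1 in the de novo expanded group and 63.3, 66.1 and 53.7 in the stably expanded group. The stably expanded libraries lay below all 6 others, and within the de novo expanded group libraries 1 and 2 were the highest of the 9 while library 3 lay below every pre-malignant library. Group means were 166 ± 31.5, 238 ± 135 and 61.1 ± 6.50. *Cers4* was called lower in the stably expanded clone than in the pre-malignant clones, with a log2 fold change of -1.41 (SE 0.24), or 2.67-fold. Leaving out any 1 library kept this call, with values from -1.50 to -1.26. It was called in 13 of 14 alternatives, all but 1 fit of all 9 libraries. These refits reuse the libraries in which the difference was already known, so they are a description and no support.

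De novo expanded over pre-malignant, the log2 fold change of *Cers4* was 0.32 (SE 0.50) and the groups overlapped. Without de novo expanded library 3 it was 0.96 (SE 0.20), which passed but fell short of 2-fold, and the groups no longer overlapped. Stably over de novo expanded, it was -1.71 (SE 0.51) and not called, although the groups did not overlap. Without library 3 this difference was -2.36 (SE 0.24) and called, a 5.12-fold lower level in the stably expanded clone. DESeq2 on all 6 libraries called it as well, at -1.96 (SE 0.44). These were the only 2 of 14 alternatives that called it. De novo expanded library 3 also had higher sums of the progenitor and neutrophil lists described further on than the other libraries of its group. Most of the progenitor sum was *Mpo*, and *Cd34* of the same list was lowest in library 3. The part of this in the *Cers4* values was not tested.

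The other 3 ceramide synthases were several times more abundant per kb and moved little. *Cers2* (chromosome 3, 95314791 to 95323599, plus strand) makes ceramides with very long acyl chains. It had 963, 1141 and 1166 normalized counts in the pre-malignant, 1505, 1378 and 1083 in the de novo expanded and 1337, 1166 and 1499 in the stably expanded group. The highest pre-malignant and the lowest stably expanded library both had 1166 on this scale and the groups did not overlap under the size factors of that pair, where the log2 fold change was 0.29 (SE 0.12). The corresponding value for de novo expanded over pre-malignant was 0.29 (SE 0.15), with overlap, or 0.42 (SE 0.12) and no overlap without library 3. Between the leukemic groups it was 0.019 (SE 0.16).

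*Cers5* (chromosome 15, 99734881 to 99772885, minus strand) and *Cers6* (chromosome 2, 68861441 to 69114282, plus strand) prefer shorter, palmitoyl-length chains. *Cers5* had 317, 474 and 429 normalized counts in the pre-malignant, 401, 495 and 390 in the de novo expanded and 409, 386 and 385 in the stably expanded group. *Cers6* had 1757, 2054 and 1511, then 1526, 1399 and 2353, and then 2041, 1735 and 1832. Both genes overlapped between all groups, and their log2 fold changes lay between -0.12 and 0.12 in the 3 comparisons. De novo expanded library 3 was the highest of all 9 libraries for *Cers6* and, within its group, the lowest for *Cers2*, *Cers4* and *Cers5*. Without it, *Cers6* was -0.25 (SE 0.13) de novo expanded over pre-malignant and 0.35 (SE 0.12) between the leukemic groups, and not called in either. The leukemic groups then no longer overlapped for *Cers6*.

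*Cers1* and *Cers3*, the remaining ceramide synthases of the mouse, are known from neurons and muscle and from skin and testis. *Cers1* had at most 5 reads in a library and *Cers3* at most 9, and neither was tested. As a share of the summed level per kb of *Cers2*, *Cers4*, *Cers5* and *Cers6*, *Cers4* made up 2.18%, 2.38% and 1.91% in the pre-malignant libraries. This share was 3.50%, 3.76% and 0.989% in the de novo expanded group and 0.723%, 0.860% and 0.602% in the stably expanded ones. The summed level itself was 625 ± 65.1 normalized counts per kb in the pre-malignant, 698 ± 21.7 in the de novo expanded and 690 ± 54.6 in the stably expanded group. *Cers4* is too small a share of this sum to move it. *Cers2* made up between 43.6% and 56.9% of it in every library.

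**Figure D2:**
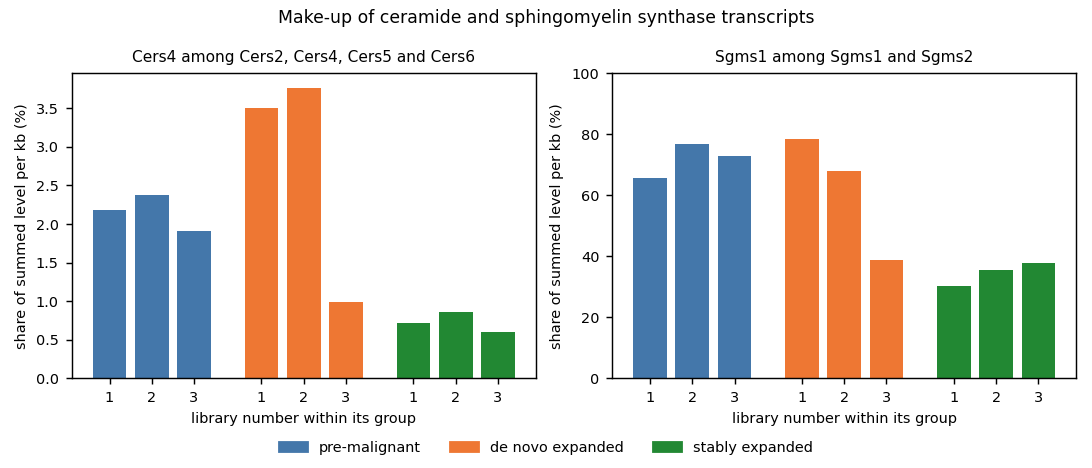
Share (%) of the summed normalized count per kb held by *Cers4* among *Cers2*, *Cers4*, *Cers5* and *Cers6* (left) and by *Sgms1* among *Sgms1* and *Sgms2* (right); each bar is 1 library, colored by group, and both axes start at 0 with different maxima. *Cers4* holds 0.602% to 0.860% in the stably expanded libraries against 1.91% to 2.38% in the pre-malignant ones, and *Sgms1* 30.2% to 37.8% against 65.8% to 76.8%.

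At the branch from ceramide to sphingomyelin, *Sgms1* was lower in the stably expanded clone. *Sgms1* (chromosome 19, 32122727 to 32389714, minus strand) encodes the sphingomyelin synthase of the Golgi apparatus. It had 188, 282 and 203 normalized counts in the pre-malignant group, 161, 213 and 97.4 in the de novo expanded group and 81.4, 118 and 88.6 in the stably expanded group. The stably expanded libraries all lay below the pre-malignant ones, and the de novo expanded group spread over both, with library 3 inside the stably expanded range. Group means were 224 ± 50.4, 157 ± 57.7 and 95.9 ± 19.1. Stably expanded over pre-malignant the log2 fold change was -1.21 (SE 0.23), a 2.32-fold lower level, and it was called. Without pre-malignant library 2, the highest of its group, it was -1.04 (SE 0.25) and not called. In 1 fit of all 9 libraries, which shares 1 estimate of the spread, neither *Cers4* (-1.41, SE 0.45) nor *Sgms1* (-1.21, SE 0.30) was called.

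The other differences of *Sgms1* were not called. The log2 fold change was -0.54 (SE 0.31) for de novo expanded over pre-malignant and -0.65 (SE 0.32) for stably over de novo expanded. Without de novo expanded library 3 they were -0.24 (SE 0.23) and -0.96 (SE 0.27), and the leukemic groups no longer overlapped.

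*Sgms2*, which encodes the sphingomyelin synthase found mainly at the plasma membrane, moved the other way. It had 57.8, 50.2 and 44.3 normalized counts in the pre-malignant, 26.2, 59.3 and 90.2 in the de novo expanded and 111, 127 and 86.0 in the stably expanded group. It rose in the stably expanded clone over the pre-malignant clones, with a log2 fold change of 1.06 (SE 0.27, adjusted p = 0.039, limma). Of the sum of both synthases per kb, *Sgms1* held 65.8%, 76.8% and 73.0% in the pre-malignant group, 78.4%, 67.9% and 38.9% in the de novo expanded and 30.2%, 35.4% and 37.8% in the stably expanded ones. The sum was 29.4 ± 4.66, 24.3 ± 5.14 and 26.4 ± 4.70 normalized counts per kb. The shares of the stably expanded group lay below those of the pre-malignant group, those of the de novo expanded group overlapped with the pre-malignant ones, and no test of the share was run.

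*Ugcg* (chromosome 4, 59189257 to 59222833, plus strand), which opens the glycosphingolipid branch, was slightly higher in both leukemic groups. Its normalized counts were 421, 452 and 429 in the pre-malignant, 504, 537 and 561 in the de novo expanded and 555, 510 and 595 in the stably expanded group. Every leukemic library lay above every pre-malignant one, and the leukemic groups overlapped. The log2 fold changes were 0.32 (SE 0.12) for de novo expanded and 0.35 (SE 0.12) for stably expanded over pre-malignant, both under 2-fold and neither called, and 0.049 (SE 0.12) between the leukemic groups. These 2 comparisons share the pre-malignant libraries, and those come from 1 mouse.

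*Sphk1* (chromosome 11, 116530925 to 116536675, plus strand), a kinase that makes sphingosine 1-phosphate, was hardly read. The pre-malignant group had 3, 6 and 3 reads of it, against 4, 0 and 0 in the de novo expanded and 0, 4 and 4 in the stably expanded ones. A count of 0 allows up to 3 reads, so no difference between the groups was detectable at this depth, and no fold is given. *Sphk2*, which encodes the other sphingosine kinase, had between 410 and 584 normalized counts in the 9 libraries, or a mean of 117 per kb against 0.584 for *Sphk1*. Its log2 fold change of -0.27 (SE 0.13) for stably expanded over pre-malignant did not pass.

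**Figure D3:**
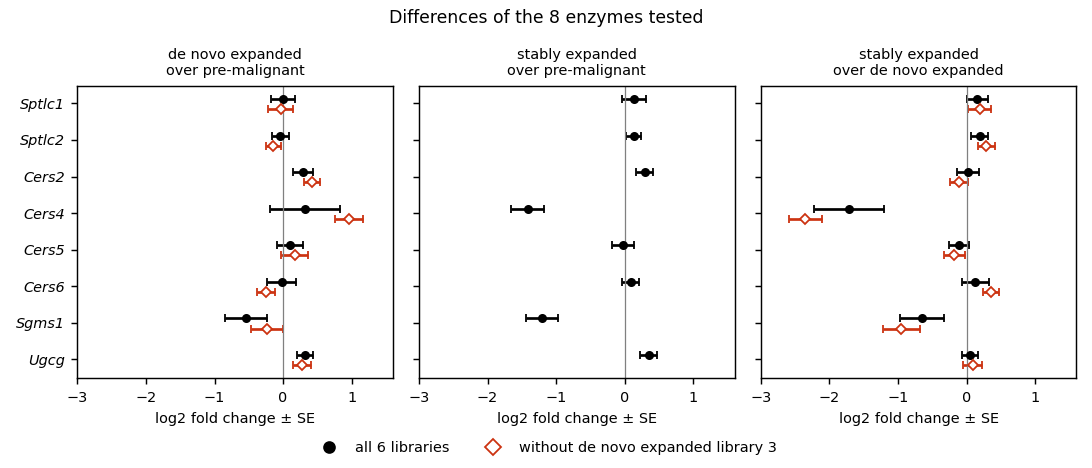
Log2 fold change ± SE of the 8 enzymes tested, in 3 panels for de novo expanded over pre-malignant, stably expanded over pre-malignant and, on the right, stably expanded over de novo expanded; filled circles use all 6 libraries of the pair and open diamonds leave out de novo expanded library 3. *Cers4* (-1.41) and *Sgms1* (-1.21) lie beyond 2-fold in the middle panel, and *Cers4* shifts from 0.32 to 0.96 in the left panel and from -1.71 to -2.36 in the right one without library 3.

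Read together, the 8 enzymes tested gave 2 calls, both for stably expanded over pre-malignant, where 2.75% of all 13968 genes tested were called, and 1.55% were called lower, the direction of both. De novo expanded over pre-malignant called 0 of the 8, beside 0% of 14195 genes. In that comparison limma called 0 genes in all, 11.3% had an unadjusted p-value under 0.05, edgeR called 0 and DESeq2 called 42. Stably over de novo expanded called 0 of the 8, beside 0.00727% of 13758 genes. Leaving out library 3 of the de novo expanded group gave 0 calls among the 8 beside 1.5% of genes for de novo expanded over pre-malignant, and 1 of 8, *Cers4*, beside 3.69% (1.11% lower) for stably over de novo expanded. Nothing is read from these shares, since the genes were picked with these differences known.

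The groups did not overlap in 4 of the 8 for stably expanded over pre-malignant (*Cers2* and *Ugcg* higher, *Cers4* and *Sgms1* lower), where this held for 30.7% of genes (16.1% higher, 14.6% lower). The count was 1 of 8 (*Ugcg*, higher) beside 19.1% (10.6% higher) for de novo expanded over pre-malignant, and 1 of 8 (*Cers4*, lower) beside 9.61% (4.95% lower) for stably over de novo expanded. The median size of the log2 fold change, regardless of sign, was 0.20 for the 8 enzymes and 0.22 for all genes in the de novo comparison. It was 0.21 and 0.26 for stably expanded over pre-malignant and 0.14 and 0.18 between the leukemic groups. The enzymes as a group thus sat near the median gene, and *Cers4* and *Sgms1* had the lowest values of the 8 for stably expanded over pre-malignant. Without de novo expanded library 3, lack of overlap was common among all genes. De novo expanded over pre-malignant, it held for 3 of the 8 higher and 1 lower, beside 2979 and 2778 of 14224 genes. Stably over de novo expanded, it held for 2 higher and 2 lower, beside 2731 and 2545 of 13756 genes.

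Over the 9 libraries, log2 levels of *Cers4* and *Sgms1* correlated with r = 0.818, and those of *Sgms1* and *Ugcg* with r = -0.758. *Sptlc1* and *Sptlc2*, whose products form 1 complex, had r = 0.756, and *Cers4* and *Sptlc2* r = -0.789. The points share 9 libraries in 3 groups and the same size factors. Among the 5 genes most like *Cers4* by Pearson's r among 13960 genes with a mean of at least 10 were *Dync1li1* (0.993), *Zfp280d* (0.981), *Ecm1* (0.956) and *Bcl11a* (0.953). *Bcl11a*, which encodes a transcription factor of B cell development, ranged from 19.4 to 45.2 normalized counts in the pre-malignant group, from 8.12 to 72.9 in the de novo expanded and from 6.33 to 9.18 in the stably expanded ones. *Dync1li1* encodes a dynein subunit and spanned only 731 to 942 normalized counts over all 9 libraries. In each of these named genes de novo expanded library 3 was the lowest of its group, as it was for *Cers4*. The genes were picked by likeness to *Cers4* in these same 9 libraries, so this shared pattern is no separate result.

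The 74 other genes of sphingolipid metabolism were grouped by function, and 55 of them had enough reads to be tested for stably expanded over pre-malignant. Of these, 7 passed higher and 1 lower, or 14.5%, where 7.95% of all genes passed (4.34% higher, 3.61% lower), and 2 of the 8 were also beyond 2-fold. Background on all genes is the only yardstick here, since the lists were written with results of these libraries known. For de novo expanded over pre-malignant and for stably over de novo expanded, 56 were tested and 0 passed, beside 0 and 1 of all genes. An unadjusted p-value under 0.05 was found for 6 of the 56 in each of these comparisons, beside 11.3% and 4.83% of all genes. Lack of overlap was no rarity either. The first comparison had 7 such genes higher and 2 lower among the 56, where all 14195 genes had 1501 and 1206. In the second, 1 was higher and 3 were lower, where all 13758 genes had 641 and 681. Nothing is therefore read from a lack of overlap in the single genes named below for these comparisons. DESeq2 called 0 of the 74 in the de novo comparison and 1 between the leukemic groups, and edgeR called 0 in both.

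In the synthesis of ceramide, 0 of 6 genes tested passed for stably expanded over pre-malignant. These are the genes for the small subunit of serine palmitoyltransferase (*Sptssa*), its ORMDL inhibitors, 3-ketodihydrosphingosine reductase (*Kdsr*) and dihydroceramide desaturase (*Degs1*). Their log2 fold changes lay between -0.20 (SE 0.19) in *Degs1* and 0.36 (SE 0.20) in *Ormdl2*, none of which passed. *Degs1*, which introduces the double bond of ceramide, had 369, 298 and 86.6 normalized counts in the de novo expanded libraries, with library 3 far below the other libraries of its group as in *Cers4*.

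Among sphingomyelin genes, 1 of 7 tested passed, *Sgms2*, whose values are given above. The lowest was *Smpdl3a*, a sphingomyelinase-like phosphodiesterase, at -0.21 (SE 0.13, adjusted p = 0.36, limma). *Smpd5*, which encodes a sphingomyelinase-like protein of mitochondria, had 4.20, 1.86 and 12.9 normalized counts in the pre-malignant, 25.1, 24.4 and 13.5 in the de novo expanded and 9.95, 12.9 and 5.37 in the stably expanded group. It did not overlap between de novo expanded and pre-malignant at a log2 fold change of 1.87 (SE 0.68), without passing (adjusted p = 0.41, limma), and its few reads allow no firmer statement.

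Genes of the glycosphingolipids gave 3 of the 8 genes that passed, out of 19 tested, and all 3 were higher in the stably expanded clone. *B4galt6*, a lactosylceramide synthase, had 2370, 2062 and 1815 normalized counts in the pre-malignant, 884, 1167 and 4687 in the de novo expanded and 4577, 3559 and 4021 in the stably expanded group. It rose by 0.96 on the log2 scale (SE 0.12, adjusted p = 0.0035, limma), just under 2-fold, and de novo expanded library 3 was higher than every stably expanded library while libraries 1 and 2 of that group were the lowest of all. *Neu1*, a lysosomal sialidase, rose by 0.65 (SE 0.16, adjusted p = 0.037, limma), and the lowest gene of the list was *Gla*, the lysosomal alpha-galactosidase, at -0.30 (SE 0.17, adjusted p = 0.29, limma).

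Of the ceramidases and ceramide kinase, 1 of 4 tested passed. *Cerk*, which phosphorylates ceramide, had 2123, 1940 and 1911 normalized counts in the pre-malignant, 1164, 1254 and 2786 in the de novo expanded and 3044, 2294 and 2792 in the stably expanded group. It rose by 0.44 in the stably expanded over the pre-malignant clones (SE 0.11, adjusted p = 0.041, limma). *Acer3*, an alkaline ceramidase, was the lowest at -0.19 (SE 0.12, adjusted p = 0.33, limma).

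In sphingosine 1-phosphate metabolism 2 of 8 tested passed, in opposite directions. *Sgpl1*, the lyase that breaks sphingosine 1-phosphate down for good, had 1022, 916 and 1260 normalized counts in the pre-malignant, 829, 877 and 765 in the de novo expanded and 552, 782 and 651 in the stably expanded group. It fell by 0.69 on the log2 scale (SE 0.16, adjusted p = 0.026, limma). *Sgpp1*, a phosphatase that returns it to sphingosine, rose by 0.59 (SE 0.12, adjusted p = 0.016, limma), from 1137 ± 91.2 to 1723 ± 247. The largest difference of the list was that of the receptor *S1pr4*, at 0.75 (SE 0.31, adjusted p = 0.16, limma). *Spns2*, a sphingosine 1-phosphate exporter, had 29.4, 15.8 and 22.2 normalized counts in the pre-malignant and 35.3, 121 and 57.7 in the de novo expanded libraries, which did not overlap, at 1.51 (SE 0.50, adjusted p = 0.40, limma).

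Fatty acid elongation supplies the acyl-CoA that ceramide synthases use. Of 11 genes tested 1 passed, *Elovl5*, an elongase of polyunsaturated fatty acids, which rose by 0.69 (SE 0.11, adjusted p = 0.0073, limma) from 949 ± 34.2 to 1537 ± 180. *Hacd2*, a dehydratase of the elongation cycle, was the highest at 0.83 (SE 0.23, adjusted p = 0.051, limma). *Elovl4*, an elongase of very long chains, was the lowest at -1.19 (SE 0.63, adjusted p = 0.26, limma). *Elovl4* had 62.7, 61.0 and 26.2 normalized counts in the de novo expanded and 4.52, 23.9 and 10.7 in the stably expanded libraries, which did not overlap, at -2.02 (SE 0.64, adjusted p = 0.89, limma).

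**Figure D4:**
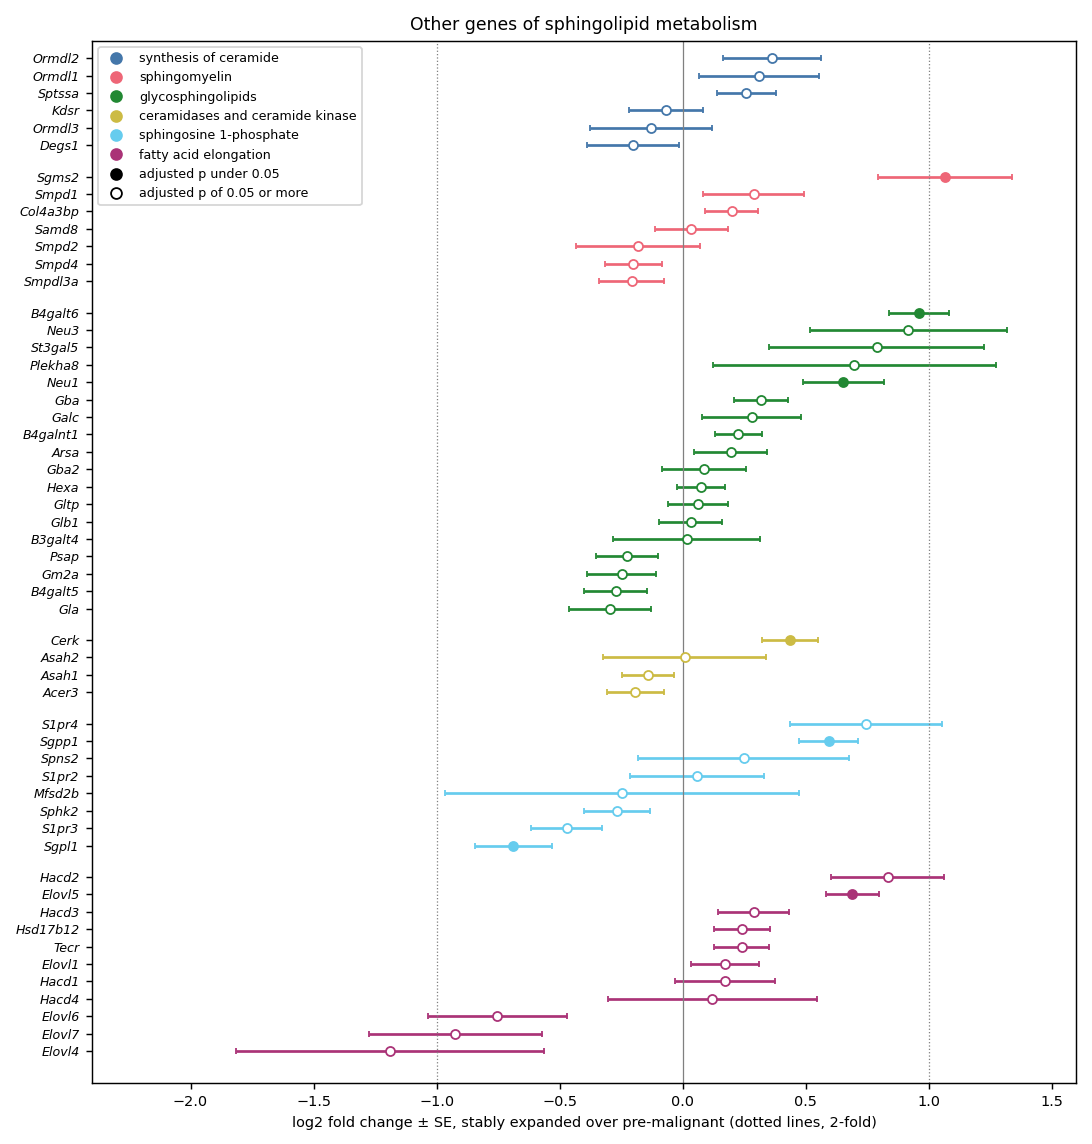
Log2 fold change ± SE of other sphingolipid genes tested for stably expanded over pre-malignant, ordered within 6 functional groups given by color; filled symbols have an adjusted p-value under 0.05 over all genes and dotted lines mark 2-fold. The filled symbols are *Sgms2*, *B4galt6*, *Neu1*, *Cerk*, *Sgpp1* and *Elovl5* on the right and *Sgpl1* on the left, and the genes of ceramide synthesis lie between -0.20 and 0.36.

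The genes that passed depended on single libraries to different degrees, and in 1 fit of all 9 libraries 0 of the 8 passed (adjusted p-values from limma between 0.084 and 0.42). *B4galt6* and *Elovl5* passed without any 1 of the 6 libraries. *Sgpp1* did not pass without pre-malignant library 2 (adjusted p = 0.077, limma). *Sgms2* passed without stably expanded library 3, and the adjusted p-values from limma without each of the other 5 libraries lay between 0.073 and 0.11. *Neu1* and *Cerk* each passed without stably expanded library 2 and failed without any of the other 5, and *Sgpl1* did not pass without pre-malignant library 1 or 3 or stably expanded library 1, with adjusted p-values between 0.068 and 0.14 (limma) over these losses.

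Without de novo expanded library 3, the other libraries of its group differed from both other groups in several of these genes. Library 3 was left out because it resembled the stably expanded libraries more than its own group in these same data. Leaving it out thus favors such differences, and the counts and p-values without it are a description only. Against the pre-malignant clones, 8 of the 56 tested passed and 3 were called, beside 4.35% of all genes that passed and 1.5% called. *St3gal5*, which makes the ganglioside GM3, had 42.0, 27.9 and 15.7 normalized counts in the pre-malignant libraries and 183 and 160 in de novo expanded libraries 1 and 2, against 30.7 in library 3. It rose by 2.66 without library 3 (SE 0.41, adjusted p = 0.0082, limma), while *B4galt6* fell by 1.01 (SE 0.15, adjusted p = 0.0057, limma) and *Galc*, the lysosomal galactosylceramidase, by 1.10 (SE 0.23, adjusted p = 0.028, limma).

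Stably over de novo expanded, 11 of 56 passed without library 3 and 6 were called, beside 6.69% of all genes that passed and 3.69% called. Among those called, higher in the stably expanded clone were *B4galt6* (1.99), *Galc* (1.39), *Neu1* (1.34) and *Cerk* (1.16), and lower was *St3gal5* (-1.86). With all 6 libraries none of these named genes passed. Library 3 lay above the stably expanded range for *B4galt6* and *Galc*, inside it for *Neu1* and *Cerk*, and below it for *St3gal5*.

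The genes that define the sorted cells were present. *Kit* had between 1937 and 3979 normalized counts in the 9 libraries, *Ptprc*, which encodes CD45, between 4238 and 5216, and *Elane*, a granule gene of myeloid progenitors, between 2019 and 29662. For stably expanded over pre-malignant, of the 6 sort and progenitor genes *Itgam* and *Elane* passed higher and *Cd34* lower. Their summed level was 107270 to 117212 in the pre-malignant, 32411 to 257631 in the de novo expanded and 127793 to 157254 in the stably expanded libraries, with the highest value in de novo expanded library 3. Most of that value was *Mpo*, at 218137, while *Cd34* in that library was at 644, the lowest of the 9 libraries.

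Markers of other cells moved with the comparison in which *Cers4* and *Sgms1* were called. Of 6 neutrophil granule and surface genes, *Camp*, *Ltf* and *Ngp* passed higher in the stably expanded over the pre-malignant clones, *Mmp8* had a log2 fold change of -1.06 (SE 0.62, adjusted p = 0.31, limma) without passing, *Ly6g* was at 14.8 or less in every library, and the summed level was 1531 to 2274 in the pre-malignant, 1406 to 6288 in the de novo expanded and 6292 to 48674 in the stably expanded libraries. *Ms4a1*, *Pax5* and *Ighm* passed lower among 6 B cell genes, whose summed level, most of it *Ighm*, was 2884 to 3475, 1022 to 2770 and 1174 to 1424. *Cd79b* of the same list had a log2 fold change of 0.99 (SE 0.32, adjusted p = 0.080, limma) and did not pass. De novo expanded library 3 again held the extreme values of its group, 6288 for the neutrophil and 1022 for the B cell list. The part of these cell types in the sphingolipid values was not tested.

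The remaining lists passed 0 genes in any comparison of 6 libraries. The erythroid sum over 6 genes was 207 to 412 in the pre-malignant group, 24.4 to 163 in the de novo expanded and 28.2 to 280 in the stably expanded group, without overlap between the pre-malignant and de novo expanded groups. Of that list *Alas2*, which encodes the heme synthesis enzyme of red cell precursors, had a log2 fold change of -2.65 (SE 0.48, adjusted p = 0.32, limma) for de novo expanded over pre-malignant. The summed level was 16.3 to 56.8 for 6 T cell genes over the 9 libraries, 730 to 3349 for 6 macrophage genes and at most 41.6 for 5 platelet genes, of which *Ppbp* and *Gp1bb* were at 0 reads in all 9 libraries. *Adgre1* and *Vcam1* carried most of the macrophage sum, and *C1qa* was at 5.23 or less in every library.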

How the data were processed

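RNA-Seq was available for 9 libraries in 3 groups of 3. The authors trimmed reads with Trim Galore 0.6.4, aligned them with STAR 2.6.1d to GRCm38.p6 with GENCODE M25 and counted them with featureCounts 1.6.4 (versions per the submitters' processing notes). They deposited 3 tables, each with the counts of 6 libraries divided by DESeq2 size factors, a signal called normalized counts here, with gene models and lengths. The deposited log2 fold changes, standard errors, test statistics (a score), p-values and adjusted p-values of the authors' comparisons were not used. Values were multiples of 1 read, and at least 99.9954% of values above 0 came out whole (within 0.05 reads). Sample labels tie a column to its group only.

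Differences were tested with limma 3.58.1 (empirical Bayes trend, two-sided, R 4.3.3) on the log2 scale of the deposited values plus 1, for genes averaging at least 10 over the 6 libraries, with Benjamini-Hochberg adjustment. Such folds understate the change of low genes. edgeR 4.0.16 (quasi-likelihood, TMM) and DESeq2 1.42.0 on the recovered reads, pseudocounts of 0.1 and 5, other filters, scaling by reads on genes, 1 fit of 9 libraries and leaving out each library were alternatives. On the recovered reads edgeR called 0, 377 and 1 genes and DESeq2 42, 393 and 29 (de novo over pre-malignant, stably over pre-malignant, stably over de novo). Scripts were tested on simulated data. Tables and figures used Python 3.11.15, pandas 2.3.3, numpy 2.4.6 and matplotlib 3.10.9. An exact permutation test of 3 against 3 cannot give a p below 0.1. The p-values measure the spread between these samples, which are clones of 1 mouse in the pre-malignant group. Counting limits cover counting error only.

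The members, lists, tests and alternatives were chosen with earlier results of these data known. Named are the 9 members, other sphingolipid genes called or not overlapping at 2-fold, the highest and lowest of each list, the 5 genes most like *Cers4* and the marker genes. The remaining genes with an adjusted p under 0.05, *Sphk2*, *Cers1* and *Cers3* were named after their values were seen. Values of a few genes that this rule also takes in are not reported here, although the counts include them.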

Additional observations from a re-analysis of the deposited data

How the results depend on the processing

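The log2 fold changes of the 8 tested enzymes moved by no more than their replicate spread in all 336 values recomputed. With 3 libraries a group, leaving out 1 library cannot move a value beyond that spread. The values with a library left out therefore say nothing about robustness. *Cers4* and *Sgms1* for stably expanded over pre-malignant kept their sign in all 14 alternatives. Uncalled differences near 0 changed sign, as for de novo expanded over pre-malignant in *Sptlc1*, with the same sign in 7 of 14 (-0.11 to 0.18), and in *Cers4*, with 13 of 14 (-0.020 to 0.96). In 1 fit of all 9 libraries, 0 of them were called, against 2 with the pair's own 6 libraries, for stably expanded over pre-malignant. Counts of called genes depended more on the setting. De novo expanded over pre-malignant gave 0 genes, and 42 with DESeq2, 5 without a filter on low values, 5 in 1 fit of all 9 libraries and 0 to 214 when a library was left out. Among the other sphingolipid genes it gave 0, and 0 to 3 when a library was left out. Stably expanded over pre-malignant gave 384 genes, but 6 in 1 fit of all 9 libraries and 206 to 452 when a library was left out. Among the other sphingolipid genes it gave 2, but 0 in that fit and 0 to 3 when a library was left out. Stably over de novo expanded gave 1 gene, and 29 with DESeq2, 2 without a filter, 2 in 1 fit of all 9 libraries and 0 to 508 when a library was left out. Among the other sphingolipid genes it gave 0, and 1 with DESeq2 and 0 to 6 when a library was left out. The cause of these shifts was not tested. In that fit the 8 other genes that passed for stably expanded over pre-malignant had adjusted p-values from limma between 0.084 and 0.42.

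No paired analysis was possible because the columns of the tables carry no clone or mouse, and no de novo expanded library is matched to the pre-malignant library of its clone. With 3 libraries a group and *Sphk1* at 0 to 6 reads, small differences were not detectable at this depth.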
